A study of Mus musculus with 6 samples.

Results

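Pdlim3 and a group of related LIM domain genes were measured on Affymetrix arrays in cultured mesenchymal cells of the fetal mouse urogenital sinus, with and without a high dose of 17β-estradiol (E2). The group held 10 genes, Pdlim1, Pdlim2, Pdlim3, Pdlim4, Pdlim5, Pdlim7, Csrp1, Csrp2, Fhl1 and Fhl2, chosen by gene symbol, and every probe set of the array annotated to one of these symbols was taken. That gave 10 of the 12393 genes on the array and 20 of the 22626 probe sets analysed. Pdlim3 was the starting point, and it was chosen with its difference on these same arrays known. The differences between E2 and control cells in these 10 genes are therefore given as descriptions, without a test of their own. The urogenital sinus, from which the prostate grows out in the embryo, was taken from male CD-1 fetuses on gestation day 17, its epithelium was discarded, and the mesenchymal cells were used at first passage. In the E2 group, 3 samples were treated with 100 nM E2 for 4 days, and in the control group 3 samples received the ethanol vehicle. All 6 samples were kept in hormone-stripped medium containing 690 pM dihydrotestosterone (DHT), an androgen, and had spent 3 days free of estrogen before treatment. Neither the labels nor the methods state whether the replicates came from separate cell preparations, so the spread between them may be technical.

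LIM domains are zinc-binding modules that hold proteins together, and many LIM proteins sit on actin filaments, at focal adhesions or at the Z-discs of striated muscle. The Pdlim proteins pair a PDZ domain, which attaches them to the actin crosslinker α-actinin, with LIM domains. The Csrp proteins are small LIM-only partners of α-actinin and zyxin that are abundant in smooth muscle. The Fhl proteins consist of LIM domains alone and work both on the cytoskeleton and as cofactors of transcription in the nucleus. Several of these genes are known targets of serum response factor (SRF), which reads the CArG box, and muscle genes are often read by TEAD factors through the MCAT element CATTCC.

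The sequences upstream of the start sites are shown for Pdlim3, because its signal differed most between the groups, for Fhl1 and Fhl2, because they carried a CArG box, and for Lmcd1, a further LIM gene that was lower in E2 cells. They are taken from RefSeq on GRCm38.p6 and run 5′ to 3′ over the 250 bases before the start site. Capitals mark matches on either strand to the MCAT element, the Sp1 core and the CArG box.
Pdlim3, chr8:45885237-45885486, plus strand: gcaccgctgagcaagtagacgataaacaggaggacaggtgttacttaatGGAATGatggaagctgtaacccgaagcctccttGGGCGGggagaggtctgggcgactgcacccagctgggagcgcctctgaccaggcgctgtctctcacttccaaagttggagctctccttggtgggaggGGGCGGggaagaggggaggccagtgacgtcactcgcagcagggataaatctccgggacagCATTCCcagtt
Fhl1, chrX:56779433-56779682, plus strand: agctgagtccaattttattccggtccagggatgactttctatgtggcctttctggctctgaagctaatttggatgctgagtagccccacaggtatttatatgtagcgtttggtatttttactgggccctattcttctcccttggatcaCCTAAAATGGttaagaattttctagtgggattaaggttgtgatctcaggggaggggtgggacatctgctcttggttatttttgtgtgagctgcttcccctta
Fhl2, chr1:43163962-43164211, minus strand: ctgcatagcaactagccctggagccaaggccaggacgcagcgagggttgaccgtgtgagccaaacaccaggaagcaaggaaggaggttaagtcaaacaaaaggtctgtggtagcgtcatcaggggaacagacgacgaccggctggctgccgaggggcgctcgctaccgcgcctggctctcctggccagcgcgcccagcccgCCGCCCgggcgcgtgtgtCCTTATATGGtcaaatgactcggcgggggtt
Lmcd1, chr6:112273508-112273757, plus strand: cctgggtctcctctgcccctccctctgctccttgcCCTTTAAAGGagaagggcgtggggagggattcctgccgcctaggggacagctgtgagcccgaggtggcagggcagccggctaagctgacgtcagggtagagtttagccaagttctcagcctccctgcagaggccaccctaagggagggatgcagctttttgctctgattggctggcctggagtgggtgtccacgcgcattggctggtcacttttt

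Motifs were searched on both strands in windows of 250 bases before and 50 bases after each start site, and 8 of the 10 genes had such a window, 12 windows in all. Pdlim2 and Csrp2 were not matched. The MCAT element CATTCC was found in 1 of the 12 windows, that of Pdlim3, where it lay at -201 to -196 (reverse strand) and at -11 to -6 from the start site, and in 14.7% of all 32851 windows. The CArG box was found in 3 of the 12 windows, with the site CCTAAAATGG at -102 to -93 in Fhl1 and the sites CCAAAAAAGG at -96 to -87 and CCTTATATGG at -31 to -22 of separate start sites of Fhl2. It was found in 1.63% of all windows. The Pdlim3 window held none, and the Lmcd1 window held CCTTTAAAGG at -215 to -206. GGGCGG, the core of Sp1 sites, was found in 7 of the 12 windows, each of a different gene and that of Pdlim3 among them, and in 35.7% of all windows. The full palindromic estrogen response element was found in 0 of the 12 windows and in 0.07% of all windows. The AP-1 element TGACTCA was likewise found in 0 of the 12 windows, and in 5.2% of all windows. No match overlapped that of another motif. A match describes letters in a window and does not show binding.

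Each value below is the fluorescence signal of a probe set after the 6 arrays were scaled to a common median, in units of the deposited table. A probe set entered the fit if its mean as deposited was at least 10 units in either group, which 14223 probe sets did. Of the 20 LIM probe sets, 18 entered, covering all 10 genes, and all 18 reached 10 units in both groups. The others were a pair of probe sets of Pdlim1, 1437169_at and 1437170_x_at, with means of 3.67 and 1.89 units in E2 cells and of 0.703 and 1.63 units in control cells. Differences are log2 values, with the control mean subtracted from the E2 mean, and carry the standard error (SE) from limma. Each probe set binds its target with its own strength, so a brighter signal does not mean more RNA. The brightness of probe sets was used only to pick 1 per gene, and sums over marker genes only to compare arrays. The highest of the 6 array medians as deposited was 1.59 times the lowest. Probe sets for 18S ribosomal RNA averaged 119 units as deposited on E2 replicate 2 and 116 units on control replicate 3, against 16.3 to 30.7 units on the other 4 arrays.

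Pdlim3, the actinin-associated LIM protein of muscle Z-discs, was lower in every E2 sample than in any control sample. Its only probe set, 1449178_at, gave 12.7, 11.9 and 12.2 units in E2 replicates 1 to 3, against 30.9, 56.0 and 65.0 units in control replicates 1 to 3. After scaling, the E2 arrays lay close together, just above 10 units. As deposited, they gave 13.2, 9.34 and 15.3 units, so E2 replicate 2 was below 10 units before scaling. The scaled control arrays were spread over a 2.10-fold range, with control replicate 1 the lowest. The means were 12.3 ± 0.425 units in E2 cells and 50.6 ± 17.7 units in control cells (SD, n = 3 each). On the log2 scale the difference was -1.98 with an SE of 0.29, so that the geometric mean of the control signals was 3.94 times that of the E2 signals. By size of fall Pdlim3 ranked 17 among the 14223 probe sets tested. The E2 signal lay at the dim end of the array, and with 16 units added to each value before the log, the difference was -1.20 (SE 0.19). On the pair of arrays with high 18S signal, E2 replicate 2 and control replicate 3, the difference was -2.45, and on the other 4 arrays it was -1.74.

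**Figure D1:**
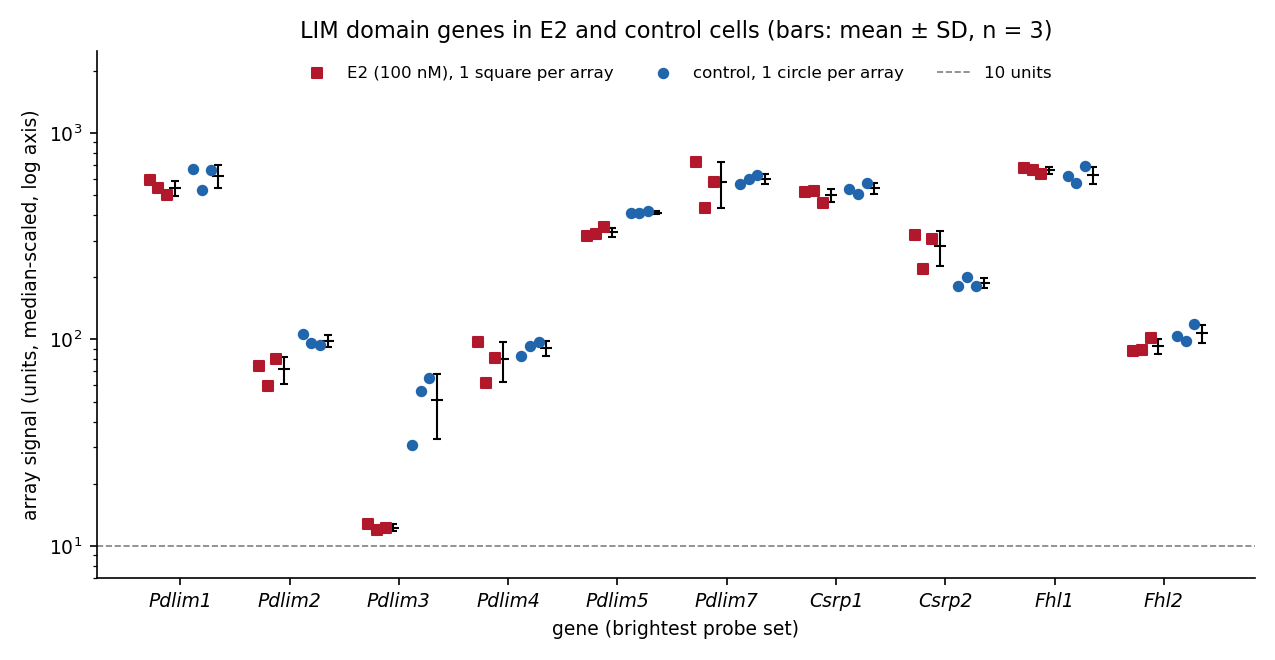
Array signal in median-scaled units, on a log axis, of the brightest probe set of each of the 10 LIM genes, with 1 red square per E2 array on the left of each gene and 1 blue circle per control array on the right, and the mean ± SD of 3 arrays as black bars. The Pdlim3 squares lie at 11.9 to 12.7 units, just above the dashed line at 10 units, and its circles at 30.9 to 65.0 units.

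Of the 18 LIM probe sets tested, 1 passed an adjusted p of 0.05 in the limma fit over all probe sets, that of Pdlim3, and it was lower in E2 cells. Over the whole array 0.745% passed, 0.253% lower and 0.492% higher in E2 cells. The groups did not overlap in 7 of the 18, against 14.2% of all probe sets tested. Without overlap, E2 cells were the lower in 5 of the 18, against 8.49% of all tested, and the higher in 2 of the 18, against 5.72%. Because this contrast was known when the genes were chosen, nothing is read from these shares. The call of Pdlim3 was lost without control replicate 3, where 0 LIM probe sets passed and the difference of Pdlim3 was -1.76, and it was lost when limma was run without the variance trend. The 18 probe sets are not independent, since 7 of them read Pdlim5. Differences were below 0 for 15 of the 18, with a median of -0.19. Of all probe sets tested, 56.6% were below 0, with a median of -0.04. This count depended on the scaling and on the arrays. It was 13 of 18 with quantile normalization, against 51.6% of all probe sets, and 12 of 18 with the values as deposited, against 45.8% of all. It was 11 of 18 without E2 replicate 2, against 46.8% of all, and 10 of 18 without E2 replicate 2 and control replicate 3, against 45.9% of all. Between replicates, the highest signal was 1.07 to 2.22 times the lowest in E2 cells and 1.03 to 1.42 times in control cells for the 17 probe sets other than that of Pdlim3.

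Among the other short PDZ-LIM proteins, Pdlim2, an adaptor known to promote the breakdown of NF-κB, gave 74.4, 59.6 and 80.6 units in E2 cells, against 106, 95.8 and 93.7 units in control cells. All E2 samples lay below all control samples, with a log2 difference of -0.47 (SE 0.16), and the probe set did not pass. Pdlim1, an α-actinin partner of stress fibers, gave 589, 540 and 498 units in E2 cells and 666, 531 and 664 units in control cells. The groups overlapped, and the difference was -0.19 (SE 0.12). Pdlim4, an actin-bundling PDZ-LIM protein, gave 96.7, 61.6 and 81.6 units in E2 cells and 82.7, 93.0 and 96.8 units in control cells, with a difference of -0.20 (SE 0.18). Its E2 arrays spanned a wider range than its control arrays, which lay almost entirely within that range.

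Pdlim5, a protein of the Enigma group that joins protein kinase C to the actin cytoskeleton, was read by 7 probe sets, which did not move alike. The brightest, 1427475_a_at, gave 318, 323 and 350 units in E2 cells, against 408, 407 and 420 units in control cells. These groups did not overlap, and the difference was -0.32 (SE 0.11). Probe set 1421413_a_at also showed no overlap, with 215, 173 and 186 units in E2 cells, against 227, 244 and 256 units in control cells, and a difference of -0.35 (SE 0.13). A further bright probe set, 1450786_x_at, gave 165, 202 and 253 units in E2 cells and 229, 317 and 267 units in control cells. These groups overlapped, and the difference was -0.40 (SE 0.17). In the opposite direction, 1429783_at gave 20.6, 29.2 and 22.7 units in E2 cells, against 15.8, 15.8 and 14.2 units in control cells, a difference of 0.64 (SE 0.28) in a dim range. The 3 remaining probe sets had differences of -0.18 to -0.05, with overlapping groups. None of the 7 passed. The annotation table does not say which transcript of Pdlim5 each probe set reads, and the suffix x marks probes that may match other transcripts. Pdlim7, or Enigma, overlapped between the groups on both of its probe sets, with differences of -0.07 (SE 0.16) and -0.03 (SE 0.17). On the brighter, 1428319_at, E2 replicate 1 at 725 units was the highest array and E2 replicate 2 at 435 units the lowest, and the control arrays lay between them at 566 to 628 units.

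**Figure D2:**
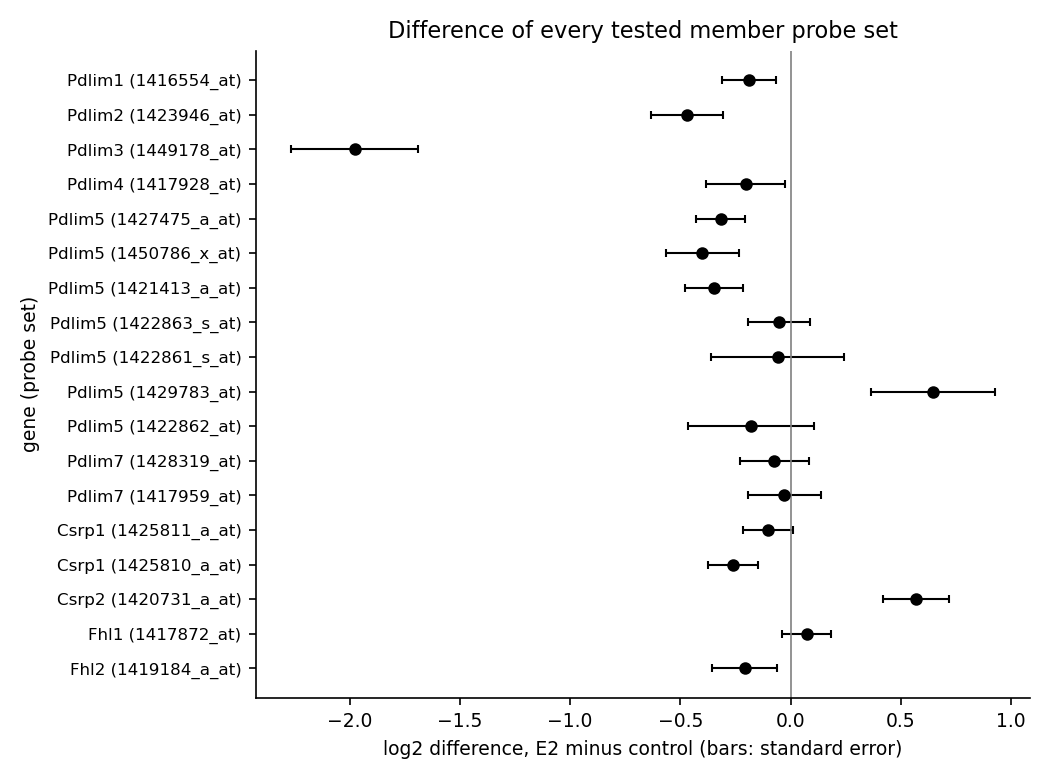
Log2 difference, E2 minus control, of each of the 18 LIM probe sets tested, with its standard error as a bar and a grey line at 0. Pdlim3 lies at -1.98, Csrp2 and 1 of the 7 probe sets of Pdlim5 lie at 0.57 and 0.64, and the others lie between -0.47 and 0.07.

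Csrp2, a LIM-only protein of smooth muscle and fibroblasts, was the gene with the largest positive difference on its brightest probe set. It gave 320, 219 and 306 units in E2 cells, against 181, 200 and 182 units in control cells. All E2 samples lay above all control samples, E2 replicate 2 only narrowly, and the difference was 0.57 (SE 0.15). It did not pass in the fit with median scaling. It passed beside Pdlim3 with quantile normalization, with array weights and without E2 replicate 2. Its relative Csrp1, a smooth muscle protein of the same build, had negative differences on both probe sets. The brighter, 1425811_a_at, overlapped, with 520, 525 and 460 units in E2 cells and 538, 506 and 571 units in control cells and a difference of -0.10 (SE 0.11). The other, 1425810_a_at, did not overlap, with 421, 388 and 392 units in E2 cells, against 504, 441 and 497 units in control cells and a difference of -0.26 (SE 0.11). Neither probe set passed.

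Fhl1, a LIM-only protein of skeletal and heart muscle, gave 676, 665 and 632 units in E2 cells and 618, 572 and 690 units in control cells. The groups overlapped, and the difference of 0.07 (SE 0.11) had a 95% interval of -0.16 to 0.31. Fhl2, which is known as a coactivator of the androgen receptor in human cells, gave 87.8, 88.6 and 101 units in E2 cells and 104, 98.2 and 119 units in control cells. Its difference was -0.21 (SE 0.15), with a 95% interval of -0.53 to 0.11. The groups overlapped by 1 E2 sample and 1 control sample. Neither of these genes passed.

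The genes whose pattern over the 6 arrays was most like that of Pdlim3 were found by the root mean square distance between log2 profiles, each set relative to its control mean. They were Egfl6, at a distance of 0.41, Rad54l2 (0.42), Prom1 (0.51), Eef1aknmt (0.52), Capn6 (0.55) and C1qb (0.57). Egfl6, a secreted EGF-repeat protein, gave 8.03, 5.78 and 3.84 units in E2 cells, against 20.3, 26.2 and 21.4 units in control cells, with no overlap of the groups. Prom1, a membrane glycoprotein of progenitor cells, gave 11.5, 9.83 and 7.79 units in E2 cells, against 39.5, 28.1 and 30.5 units in control cells, a difference of -1.76 (SE 0.31). Capn6, a calpain relative without protease activity, gave 56.2, 50.8 and 71.8 units in E2 cells, against 121, 149 and 162 units in control cells, a difference of -1.28 (SE 0.17). Egfl6, Rad54l2 and Eef1aknmt stayed below 10 units on all 3 E2 arrays. These genes and Prom1 entered the fit through their control signal alone. Nearness here follows from the fall in E2 cells that Pdlim3 was chosen for, so it is a description of likeness only, with no test.

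C1qb is a complement gene of macrophages, and the macrophage markers as a list had lower means in E2 cells. C1qb gave 25.1, 21.0 and 15.1 units in E2 cells, against 31.6, 59.8 and 55.9 units in control cells. Control replicate 1 was the lowest control array for C1qb and for Pdlim3 alike. Since C1qb was picked for likeness to Pdlim3 over all the arrays, control arrays included, nothing is read from this. All 7 macrophage markers had a lower mean in E2 cells, none of the 7 passed in limma, and none was at 0. Over all probe sets tested, 56.6% had a difference below 0. Of the 7, C1qb was picked for a fall like that of Pdlim3, so it could count only as lower. C1qa and C1qb did not overlap between the groups, and the other markers did. The summed signal of the 7 was 480 to 582 units in E2 cells and 540 to 892 units in control cells. These sums overlapped at control replicate 1. Lyz2 made up most of the sum, with means of 376 units in E2 cells and 477 units in control cells. Epithelial markers had a higher summed signal in E2 cells, at 144 to 158 units, against 57.2 to 94.3 units in control cells over 10 genes. Of the 10, 0 had a lower mean in E2 cells, and 6 were below 10 units in both groups, Cdh1 and Epcam included. The 4 tested, Krt8, Krt14, Krt18 and Krt19, were higher in every E2 sample than in any control sample. Krt18 alone passed (adjusted p = 0.0416 from limma). Krt8, Krt14 and Krt19 reached 10 units in E2 cells only, so they could count only as higher. The part of macrophages and epithelial cells in the difference of Pdlim3 was not tested. In RNA from whole cultures, fewer cells of a type and less RNA per cell cannot be told apart. Of 11 striated muscle markers, 9 were below 10 units in both groups, Myod1, Myog and Ckm included. The 2 tested, Acta1 and Tnni1, averaged 40.8 and 11.7 units in E2 cells and 37.8 and 4.44 units in control cells. Neither passed. The 8 smooth muscle markers had a summed signal of 7417 to 8448 units in E2 cells and of 7086 to 8815 units in control cells, and none passed. Endothelial markers had sums of 83.4 to 85.1 units in E2 cells and of 67.9 to 81.0 units in control cells, and none passed. Below 10 units in both groups were 4 of the 6 genes, Pecam1 and Cdh5 included. Eng and Kdr averaged 47.7 and 19.4 units in E2 cells and 41.5 and 19.6 units in control cells. The 10 mesenchyme markers were all tested, and 1, S100a4, rose (adjusted p = 0.0105 from limma). Their sums were 14146 to 15101 units in E2 cells and 14418 to 16497 units in control cells.

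**Figure D3:**
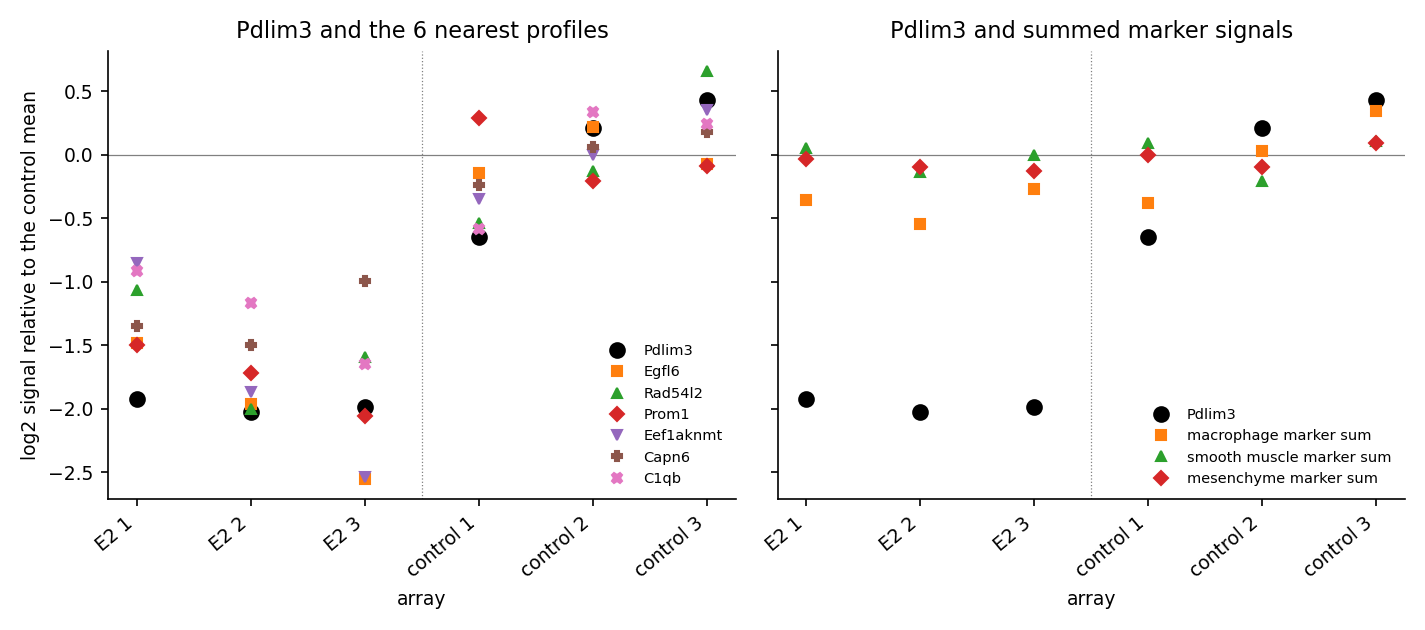
Log2 signal relative to the control mean on each of the 6 arrays, for Pdlim3 (black circles) and the 6 nearest genes on the left, and for Pdlim3 and the summed signal of 3 marker lists on the right. Pdlim3 falls far below 0 on all 3 E2 arrays and lies at -0.64 on control replicate 1. The macrophage sum is also low on these arrays, to a smaller extent. The smooth muscle and mesenchyme sums stay near 0. The epithelial sum, which was higher on all E2 arrays, is not drawn.

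Of the further LIM genes, Lmcd1 and Limch1 fell in E2 cells. Lmcd1, a muscle LIM protein known to restrain GATA factors, gave 223, 171 and 213 units in E2 cells, against 355, 344 and 365 units in control cells. All E2 samples lay well below the control samples. The difference was -0.82 (SE 0.13, adjusted p = 0.00679 from limma). Limch1, a LIM protein that activates nonmuscle myosin in human cells, gave 101, 112 and 129 units in E2 cells, against 237, 183 and 212 units in control cells, with a difference of -0.89 (SE 0.15, adjusted p = 0.00962 from limma). A dimmer probe set of Limch1 had a difference of -0.59 (SE 0.19) and did not pass (adjusted p = 0.329 from limma). Neither gene passed with the values as deposited (adjusted p = 1 for both, from limma), without the variance trend (0.196 for both, from limma) or without control replicate 3 (0.0547 for Lmcd1 and 0.0764 for Limch1, from limma). The differences changed little, to -0.76 for Lmcd1 and -0.82 for Limch1 as deposited and to -0.80 and -0.88 without control replicate 3. Limch1 also did not pass without E2 replicate 1 (adjusted p = 0.0668 from limma) or control replicate 1 (adjusted p = 0.068 from limma).

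In the list of cytoskeletal LIM genes outside the 10, 2 of 27 tested genes fell, none rose and 25 did not pass. Of all 8246 genes tested, 0.91% passed by their brightest probe set, 0.34% being lower in E2 cells. The list was chosen with earlier results of these data known, Limch1 among them. Nothing is therefore read from its share of passing genes. The median difference was -0.03, as over all genes. At an unadjusted p under 0.05, 7 of the 27 were lower and 0 higher, against 8.33% of all genes in either direction and 4.74% that were lower. Of the 7, Zfp185 and Lpxn reached 10 units in control cells only, so they could count only as lower, and nothing is read from this share. Zfp185, a LIM protein of epithelia, gave 0.999, 1.95 and 4.04 units in E2 cells, against 15.1 to 18.3 units in control cells. The groups were far apart, but the E2 signal lay far below 10 units, and the gene did not pass (difference -3.04, SE 0.83, adjusted p = 0.168 from limma). With 16 units added to each value it passed. Prickle1, Crip2 and Limd1, also among the 7, had differences of -0.43, -0.38 and -0.43. Lpxn averaged 3.09 ± 1.56 units in E2 cells and 10.6 ± 2.57 units in control cells (SD, n = 3 each), and its difference of -1.92 (SE 0.89) is of a signal below 10 units in E2 cells. Zyxin (Zyx), the Csrp partner at focal adhesions, had a difference of 0.14 (SE 0.17), and Ldb3, the closest relative of Pdlim5 and Pdlim7 in the Z-disc, one of -0.19 (SE 0.33). Csrp3 and Fhl3, relatives expressed in striated muscle, and Fhl4 and Fhl5, relatives known from testis, were below 10 units in both groups. Of 17 nuclear LIM genes and cofactors on the array, 6 were tested and limma called 0, with 0 at an unadjusted p under 0.05, and their differences ran from -0.20 to 0.21.

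Among 27 tested actin crosslinkers and adhesion partners of LIM proteins, limma called 0, against 0.91% of all genes. At an unadjusted p under 0.05, 3 were lower and 2 higher, against 8.33% of all genes in either direction and 4.74% that were lower. Actn1, the nonmuscle α-actinin that Pdlim proteins bind, gave 1249, 1384 and 1406 units in E2 cells and 1442, 1217 and 1599 units in control cells, a difference of -0.07 (SE 0.12). Actn4, the other nonmuscle α-actinin, had a difference of 0.01 (SE 0.12). The smallest p-values belonged to Palld, the actinin-binding protein palladin, with a difference of 0.48 (SE 0.15, adjusted p = 0.281 from limma), and to the adhesion proteins Sorbs3 and Rsu1, with -0.59 (SE 0.19) and -0.35 (SE 0.12). Sorbs3 and Rsu1 did not overlap between the groups. The remaining genes among the 5 were dim. The muscle α-actinin Actn3 had a difference of -0.75 (SE 0.32). The integrin Itga7 gave 21.3, 21.2 and 27.0 units in E2 cells, against 14.9, 20.3 and 1.52 units in control cells, a difference of 1.58 (SE 0.72), with control replicate 3 far below the other 5 arrays.

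In the list of SRF and smooth muscle contractile genes, limma called 0 of 26 tested, against 0.91% of all genes. At an unadjusted p under 0.05, 1 was lower, the calponin Cnn3 with a difference of -0.27, and 1 was higher, the caveolin Cav1 with 0.29, a share near the 8.33% of all genes. By the brightest probe set of each gene the differences ran from -0.27 to 0.33. Dimmer probe sets of the same genes ran further, from -0.71 for 1 of Tpm3 to 0.59 for 1 of Srf, and limma called none of them. Acta2, smooth muscle actin, gave 3704, 3646 and 4054 units in E2 cells and 4403, 3404 and 4561 units in control cells, a difference of -0.11 (SE 0.12). Tagln, an actin-binding protein of smooth muscle, had a difference of 0.04 (SE 0.11), and Srf itself one of -0.13 (SE 0.27) on its brighter probe set and of 0.59 (SE 0.33) on the other. Whether the difference of Pdlim3 departed from those of these genes was not tested, since Pdlim3 was chosen for its own.

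**Figure D4:**
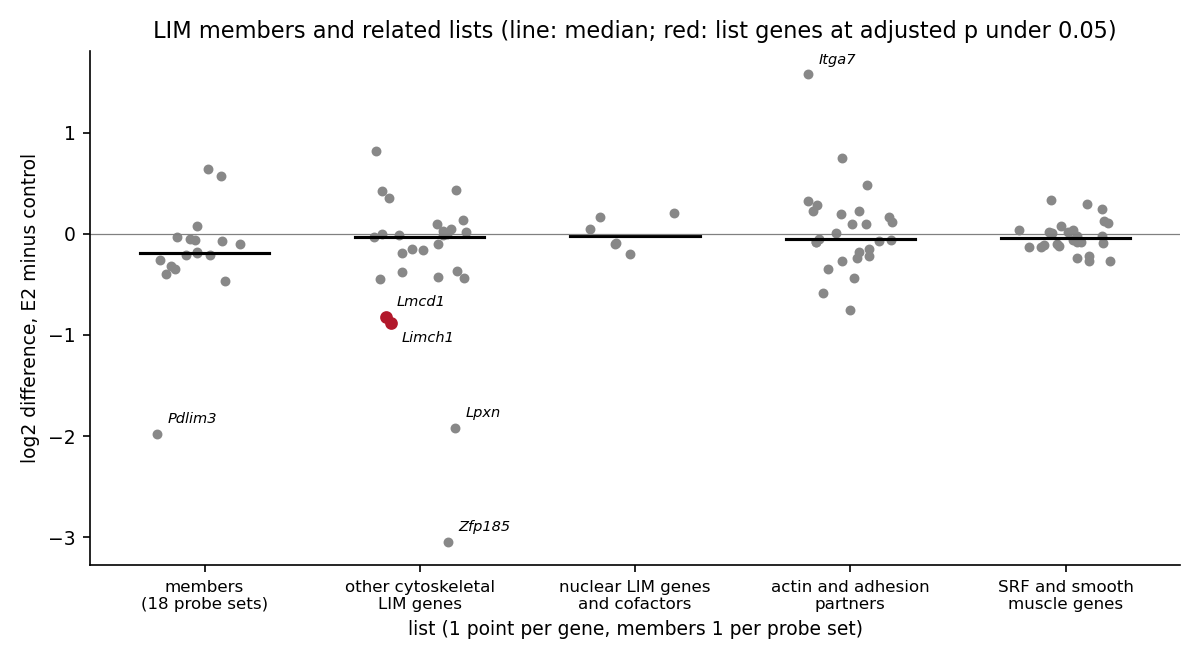
Log2 differences, E2 minus control, of the 18 LIM probe sets on the left and of the genes of 4 related lists, 1 point per gene by its brightest probe set, with the median of each list as a black line. Lmcd1 and Limch1 are the red points, at -0.82 and -0.89, and the SRF and smooth muscle genes lie within -0.27 to 0.33.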

How the data were processed

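The deposited intensity values, linear signals of 22690 probe sets on Affymetrix mouse arrays, were made by the authors with GeneChip Operating Software and Gene Expression Console. For their versions, algorithm and background correction, the sources used here give nothing. Precision is limited by the number of arrays. After 64 control probe sets were left out, each array was scaled to the mean of the 6 medians, 17.4 units, since the highest median was 1.59 times the lowest. Log2 values were fitted with limma 3.58.1 in R 4.3.3 (lmFit, then eBayes with trend). Tests were two-sided, and p-values were adjusted by the Benjamini-Hochberg method across all 14223 probe sets kept. The fit was checked on simulated data.

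Symbols came from the platform's annotation, where 20380 probe sets had 1 symbol, 691 several and 1555 no entry, and only those with 1 were named. Other genes were given by their brightest probe set. The LIM genes and the lists were chosen with earlier results of these data known, Limch1 among them. Named were all 10 LIM genes, list genes that passed and up to 6 with the smallest p, the partners Actn1, Actn4, Acta2, Tagln and Srf, and the 6 profiles nearest to Pdlim3. Zyx and Ldb3 were added after their values were seen. Alternatives were quantile normalization, unscaled values, a floor of 10 units, an added 16 units, no filter, a filter at 100 units, no variance trend, array weights, a replicate block, probe sets averaged per gene, and omission of arrays. Lower E2 doses and PCR measurements were not analysed here.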

Additional observations from a re-analysis of the deposited data

How the results depend on the processing

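The log2 difference of Pdlim3 was negative in all 15 alternatives that tested it, from -2.30 to -1.20. The extreme of -1.20 was with 16 units added, which shrinks differences of dim probe sets by construction, and with single arrays left out it ran from -2.30 to -1.76. With a filter at 100 units Pdlim3 was not tested. The LIM probe sets called numbered 1 in the fit reported, 2 with quantile normalization, with array weights and without E2 replicate 2 and control replicate 3 together, 0 with the filter at 100 units and 0 without the variance trend. With single arrays left out they numbered 0 to 2. The further LIM genes called were 2, and 0 with the values as deposited and 0 without the variance trend, and 0 to 2 with single arrays left out. With 16 units added they were 3, the third being Zfp185. The actin partners and the SRF and smooth muscle genes called were 0 under every alternative run. Of all probe sets, 106 were called, 70 higher and 36 lower (66.0% higher). As deposited 46 were called (84.8% higher), without the variance trend 16 (93.8% higher), with array weights 182, and with single arrays left out 56 to 106. The omissions that lowered this count by over 1.5 times were E2 replicate 1 (56), control replicate 2 (70) and control replicate 3 (58). The cause of these shifts was not tested. With the replicate number as a block 88 were called, and the numbers of LIM probe sets and of further LIM genes called were unchanged. Whether same-numbered samples shared a cell preparation is not stated. The deviations of same-numbered arrays correlated at 0.0078, -0.053 and -0.0583, and so few arrays cannot settle it. The number of arrays limits the precision of all these values, and the standard error was 0.29 for Pdlim3 and 0.11 for Fhl1.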
